A study of Saccharomyces cerevisiae with 42 samples.

Results

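The late phase of a heat response was examined in a parental strain of budding yeast, Saccharomyces cerevisiae, by setting the 4 arrays taken at 25 and 30 min of heat (late heat) against the 4 taken at 15 and 20 min (middle heat). These 8 arrays were chosen by the strain and time in the sample labels and are 8 of 42 in the series. The parental cells, labelled JK939a, were MAT α and carried leu2-3 112 and ura3-52, together with rme1, trp1, his4 and HMLa. Both deletion strains carried the same alleles: dpl1D had dpl1:KanMX in addition, and lcb4D/lcb5D had lcb4::KanMX and lcb5::KanMX. All cultures grew in YPD, a rich glucose medium, to log phase and were heated at 39 C, and each strain was sampled before heat and at 5, 10, 15, 20, 25 and 30 min with 2 replicate arrays per time. The labels give the times as minutes after heat stress, read here as minutes since the shift, and do not say whether replicates were separate cultures, so p-values measure the spread between these arrays, which may be technical.

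Yeast cells moved to a higher temperature switch on chaperones and other stress genes within minutes and shut down the genes that build ribosomes. The first arm is driven by the heat shock factor Hsf1 and by Msn2 and Msn4, the general stress activators, and the second follows reduced signalling through TORC1 and protein kinase A. At mild heat this response is transient, and levels move back toward a new steady state while the cells remain warm. DPL1 encodes the lyase that breaks down phosphorylated long-chain sphingoid bases, and LCB4 and LCB5 encode the kinases that make them.

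The strain labels were borne out by the targeted genes. On the log2 scale of the arrays, DPL1 lay between 8.72 and 9.81 on the 14 parental arrays and between 2.58 and 3.63 in dpl1D. LCB4 lay between 4.49 and 5.47 in the parental strain and between 2.53 and 3.68 in lcb4D/lcb5D, and LCB5 between 4.98 and 7.66 and between 2.31 and 3.48 in the same 2 strains. MF(ALPHA)1, the alpha pheromone gene, lay between 7.74 and 12.28 on the parental arrays, while STE2, the pheromone receptor of a cells, stayed between 2.72 and 4.14.

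The replicate arrays differed in some RNA classes. The 18S rRNA control probe set averaged 13.27 on the 4 replicate 1 arrays of the 2 windows and 7.84 on the 4 replicate 2 arrays. The 3' minus 5' difference of the SRB4 control averaged 0.69 and 1.90 in the same order, while that of the ACT1 control averaged 0.600 and 0.602. Between the windows these overlapped: the 18S control lay between 5.77 and 13.25 in late and between 4.58 and 13.44 in middle heat. The bacterial hybridisation controls averaged 8.41 in late and 8.67 in middle heat, and the median tRNA probe 7.86 and 8.58. The deposited values are normalised so that arrays share nearly 1 distribution, so a gain or loss of all mRNA together would not appear. The arrays also measure whole cultures, in which fewer cells expressing a gene and less RNA per cell cannot be told apart. The part of these control differences in the results was not tested.

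In late heat 31 of 5656 genes were higher and 11 lower than in middle heat, with genes of ribosome assembly, translation and phosphate uptake among those that rose and early heat-induced genes among those that fell. The 42 genes are 0.743% of those tested (0.548% higher and 0.194% lower, limma, Benjamini-Hochberg adjusted p under 0.05). All 42 moved in the same direction within replicate 1 and within replicate 2. The fold was 2 or more in 12 of the 31 and 8 of the 11. For 26 of the 31 the 4 late arrays all lay above the 4 middle arrays, and for 4 of the 11 all below. Over all genes such separation was found in 262 genes upwards (4.63%) and 113 downwards (2%).

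The replicate numbers paired the parental arrays, and with the number as a block in the fit 387 genes passed (6.84%), 272 higher (4.81%) and 115 lower (2.03%), among them all 42. Counts with this block are given below beside those without it, since they often differ by more than 1.5 times. The count without the block depended on each of the 8 arrays. It was 12 without 15 min replicate 1, 1 without 15 min replicate 2, 84 without 20 min replicate 1 and 0 without 20 min replicate 2. It was 1 without 25 min replicate 1, 27 without 25 min replicate 2, 5 without 30 min replicate 1 and 15 without 30 min replicate 2. With the block the count was 387, and it was smaller by over 1.5 times without 20 min replicate 2 (78 genes), 25 min replicate 1 (127), 30 min replicate 1 (161) and 30 min replicate 2 (246).

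**Figure D1:**
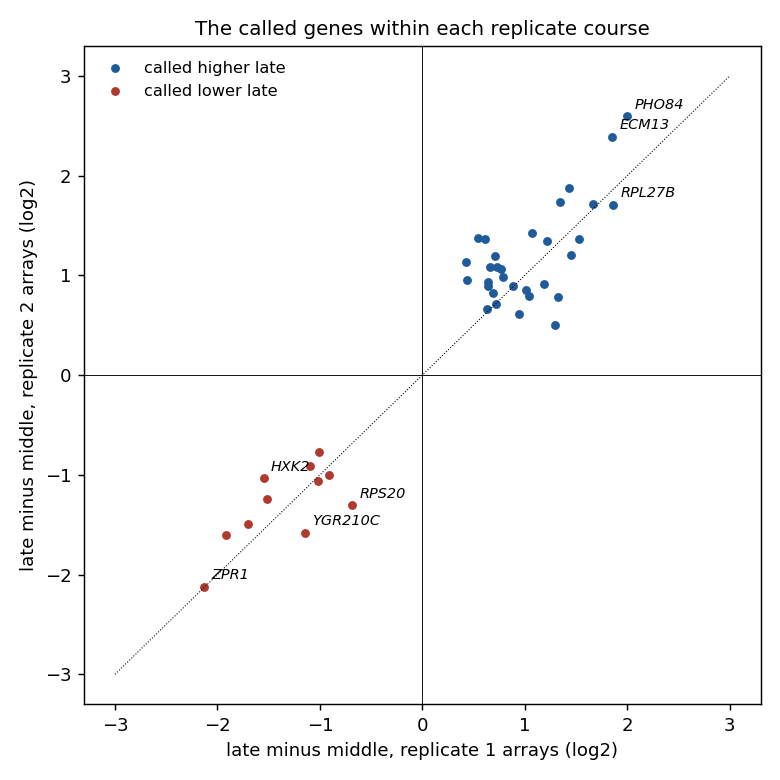
Late minus middle difference (log2) of the 42 called genes within the replicate 1 arrays (x axis) and within the replicate 2 arrays (y axis), 2 arrays per window in each; the dotted line marks equal differences. All 31 genes called higher lie at the upper right and all 11 called lower at the lower left.

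PHO84 (YML123C), the high-affinity phosphate transporter of the plasma membrane, had the largest rise. Its level was 10.86 and 11.40 at 25 min and 11.45 and 11.94 at 30 min, against 8.33 and 8.45 at 15 min and 9.99 and 9.68 at 20 min (replicates 1 and 2 in each pair). The windows did not overlap, and the difference was 2.30 ± 0.36 (log2, SE, adjusted p = 0.00341). Before heat the 2 arrays read 11.70 and 11.24, and late heat differed from them by -0.06 (adjusted p = 0.936). The late arrays lay on both sides of the 2 before heat.

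Other genes of phosphate supply also passed. Of 21 measured genes of the phosphate starvation list, 3 rose and 0 fell without the block. With it 7 rose (33.3%, against 4.81% over all genes) and 0 fell. The list's median difference was 0.39 against 0.01 over all genes. The level of its median member overlapped between the windows, with 6.97 at 25 min replicate 1 and 7.14 at 15 min replicate 1. VTC1 and VTC3, subunits of the vacuolar polyphosphate polymerase complex, rose by 0.78 ± 0.19 each (adjusted p = 0.0498 each). PHM6, a phosphate-regulated gene, read 3.77, 5.18, 4.37 and 5.54 in late and 3.34, 3.72, 3.79 and 3.27 in middle heat, which overlapped at 1 array, and passed only with the block (1.19 ± 0.28, adjusted p = 0.0135). In late heat PHM6 differed from before heat by -2.97 (adjusted p = 1.32e-06). GIT1, the permease for glycerophosphoinositol, lay between 5.08 and 6.06 in late and between 4.11 and 4.90 in middle heat, a rise of 0.98 ± 0.21 (adjusted p = 0.0337), and ended 1.70 above its level before heat (adjusted p = 6.27e-06).

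Genes of ribosome assembly rose in number, mostly in the fit with the block, in which 4.81% of all genes rose. The small subunit processome and nucleolar list, whose products cut, fold and modify the small subunit rRNA, had 64 measured members. Of these 63 differed upwards, 4 rose without the block and 29 (45.3%) rose with it, and 0 fell in either fit. For the large subunit assembly list 68 of 69 differed upwards, 1 rose without the block and 23 (33.3%) with it, and 0 fell. Their median differences were 0.84 and 0.76, against 0.01 over all genes.

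The level of the median member of the small subunit list was 5.33 and 4.65 at 25 min and 5.56 and 4.70 at 30 min, against 4.15 and 4.12 at 15 min and 4.57 and 3.71 at 20 min. All 4 late arrays therefore lay above the 4 middle arrays. Before heat the same median stood at 7.46 and 7.01, and the median difference from before heat was -2.26 in late and -3.16 in middle heat. In late heat 60 of the 64 genes were lower than before heat by the test and 0 were higher. Over all genes 22.5% were lower and 20.8% higher. For the large subunit assembly list the windows overlapped. Its median member stood at 4.40 at 25 min replicate 2 and at 4.53 at 20 min replicate 1.

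**Figure D2:**
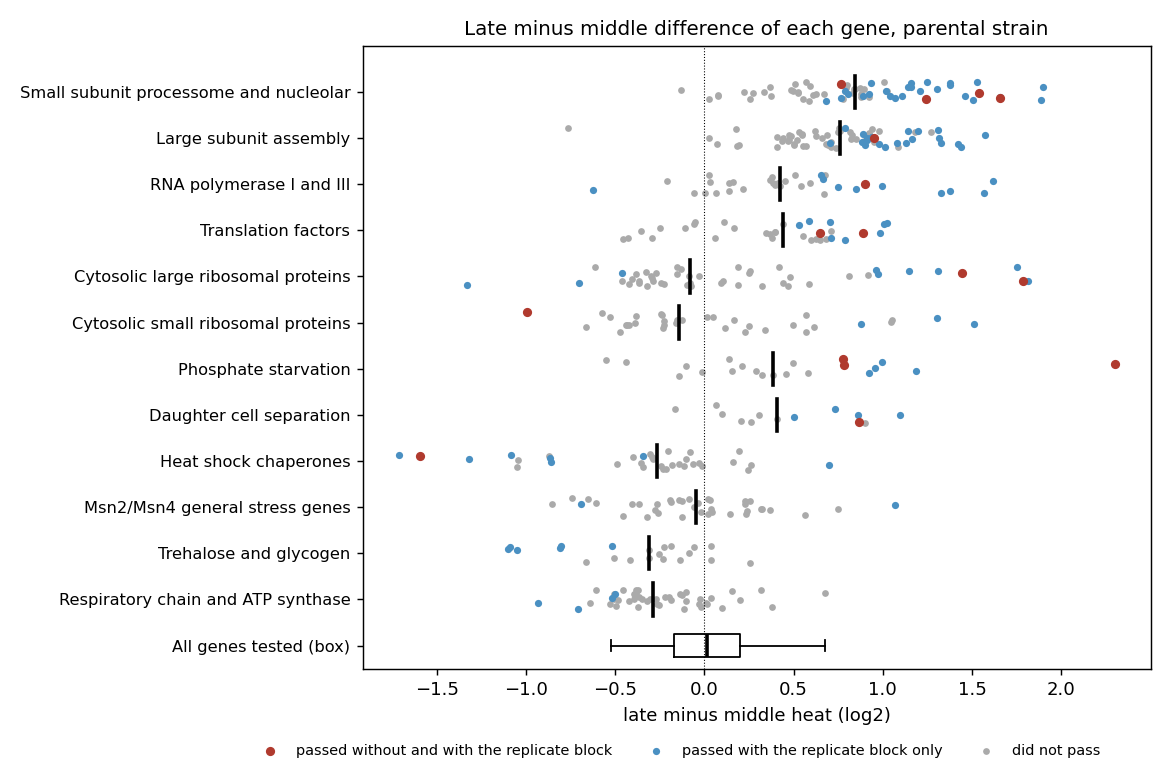
Late minus middle difference (log2, x axis) of each measured gene in 12 lists of the parental strain, with black bars at the list medians and, for all 5656 genes, a box from the lower to the upper quartile with whiskers at percentiles 5 and 95. The small subunit list lies around 0.84 and the large subunit assembly list around 0.76, while both ribosomal protein lists spread to both sides of 0 with medians of -0.08 and -0.14, which turn positive when arrays are centred on the hybridisation controls, as those of the chaperone and Msn2/Msn4 lists also do.

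NOP1 (YDL014W), the fibrillarin that methylates rRNA, read 6.26, 5.96, 6.99 and 6.59 in late heat, against 4.52, 4.18, 5.87 and 4.62 in middle heat. The windows did not overlap, with 20 min replicate 1 the highest middle array. The rise was 1.66 ± 0.35 (adjusted p = 0.0337), and NOP1 in late heat still differed from before heat by -3.11 (adjusted p = 1.94e-06). PNO1, an assembly factor of the small subunit, had 6.17 to 6.73 in late and 5.01 to 5.50 in middle heat and rose by 1.24 ± 0.30 (adjusted p = 0.0498). EMG1, a methyltransferase acting on the small subunit rRNA, rose by 1.54 ± 0.38 (adjusted p = 0.0498), with 20 min replicate 1, at 5.64, just above the lowest late array, at 5.62. SNU13, a shared protein of the U3 snoRNP and the spliceosome, rose by 0.77 ± 0.18 (adjusted p = 0.0457).

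On the large subunit side BUD20, a factor that escorts the precursor to the cytoplasm, had 6.97 to 7.17 on the late arrays and 5.68 to 6.65 on the middle arrays and rose by 0.95 ± 0.23 (adjusted p = 0.0498). NOP16 and IPI1, also of large subunit assembly and picked after their values were seen, passed only with the block, by 1.42 ± 0.23 and 1.16 ± 0.21 (adjusted p = 0.00117 and 0.00268). In both genes the 4 late arrays lay above the 4 middle arrays. NSR1, the yeast nucleolin, also picked after its value was seen, read 6.25 to 6.90 in late and 4.19 to 5.57 in middle heat and passed only with the block (1.89 ± 0.40, adjusted p = 0.00678).

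The list of polymerases that transcribe rRNA and tRNA genes had 33 measured members, of which 1 rose and 0 fell without the block. With it 10 rose (30.3%, against 4.81% over all genes) and 1 fell (3.03%, against 2.03%). RPC40, a subunit of both enzymes, read 5.72, 5.49, 6.30 and 5.80 in late and 4.83, 4.49, 5.73 and 4.65 in middle heat, a rise of 0.90 ± 0.22 (adjusted p = 0.0498). RPC19, its partner in both enzymes, differed by 1.57 ± 0.31 with the block (adjusted p = 0.00466) and had windows that did not overlap. RPB5, a subunit common to all 3 nuclear polymerases that the naming rule did not take, rose by 0.79 ± 0.17 (adjusted p = 0.0337). The single gene of the list that fell with the block was MAF1, the repressor of RNA polymerase III (-0.63, adjusted p = 0.0274), whose 4 late arrays all lay below the 4 middle arrays.

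Of 33 measured genes of the translation factor list, which includes GCD10, 2 rose and 0 fell without the block. Over all genes 0.548% rose and 0.194% fell. With the block 10 rose (30.3%, against 4.81% over all genes) and 0 fell (against 2.03%). The list's median difference was 0.44. Both genes called without the block encode subunits of eIF2B, the exchange factor that recharges eIF2 for initiation. GCD6 read 5.91, 6.06, 6.03 and 6.02 in late heat, against 5.20, 5.52, 5.48 and 5.23 in middle heat. The late arrays spread by less than the gap between the windows, and the rise was 0.65 ± 0.14 (adjusted p = 0.0337). GCD1 rose by 0.89 ± 0.21 (adjusted p = 0.0498), with 7.63 to 8.13 in late and 6.74 to 7.31 in middle heat. Among tRNA-modifying enzymes taken by the size of their rise, PUS1, a pseudouridine synthase, rose by 1.70 ± 0.38 (adjusted p = 0.0391) and TRM10, a methyltransferase, by 1.05 ± 0.22 (adjusted p = 0.0337). FPR4, a nucleolar proline isomerase and histone chaperone, rose by 1.33 ± 0.29 (adjusted p = 0.0391).

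**Figure D3:**
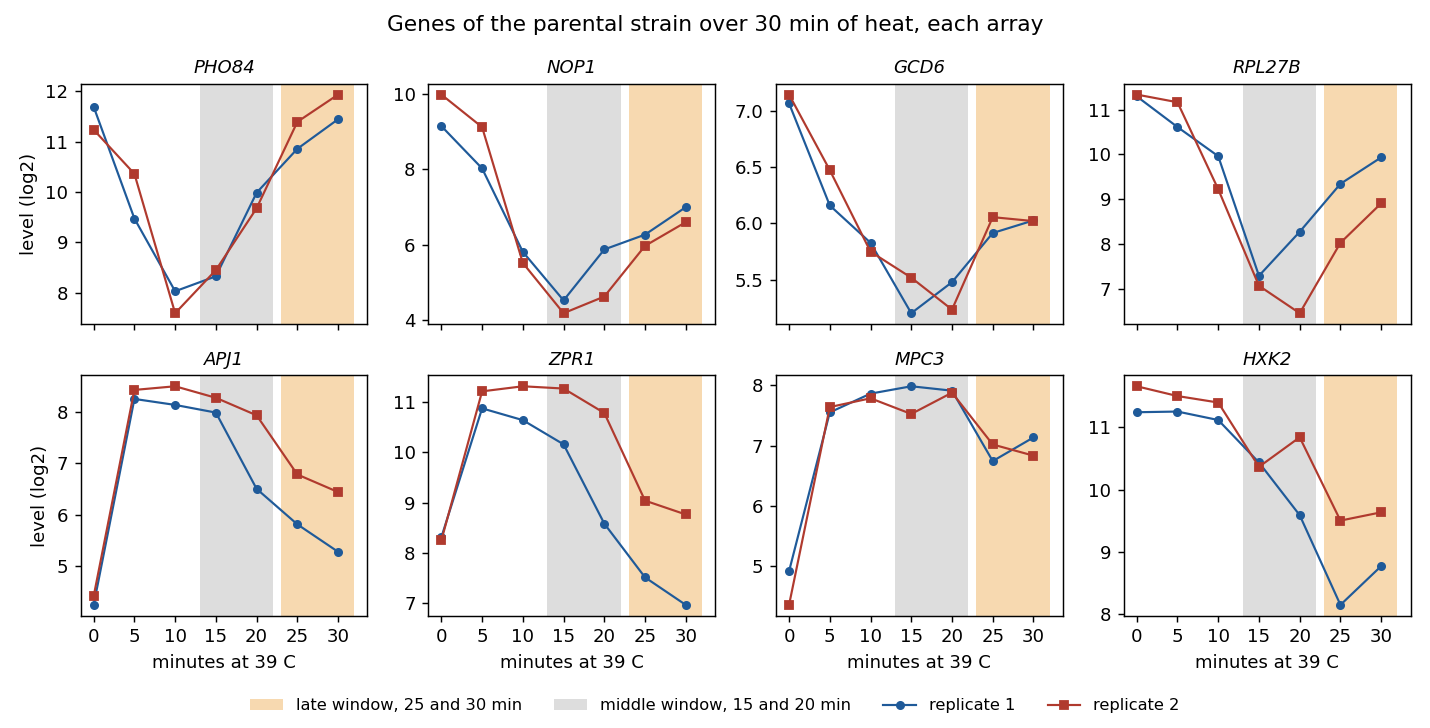
Level (log2, y axis) of 8 genes on the 14 parental arrays against minutes at 39 C (x axis), with a line for each replicate; the right shaded band marks late heat and the left one middle heat. PHO84, NOP1, GCD6 and RPL27B lie higher in the late band than in the middle band, and APJ1, ZPR1, MPC3 and HXK2 lower.

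Between the windows the ribosomal protein genes did not move as a group. Of 48 genes of the large subunit, 2 rose and 0 fell without the block and 8 rose (16.7%) and 3 fell (6.25%) with it. Over all genes 0.548% rose and 0.194% fell without the block, and 4.81% rose and 2.03% fell with it. For 34 genes of the small subunit the counts were 0 and 1 without the block and 3 (8.82%) and 1 (2.94%) with it. The medians were -0.08 and -0.14, and they differed in sign between the replicates: 0.34 and 0.40 within replicate 1, and -0.40 and -0.40 within replicate 2. Both medians turned positive without 25 min replicate 2 (0.06 and 0.03) or without 30 min replicate 2 (0.21 and 0.12), and the large subunit's also without 20 min replicate 1 (0.01). The median difference of a large subunit gene from before heat was -2.27 in late and -2.26 in middle heat. In late heat 46 of 48 were lower than before heat by the test, against 22.5% of all genes. The level of the large subunit list's median member also moved within the windows. It was 9.81 and 9.65 at 15 min and 9.44 and 9.05 at 20 min (replicates 1 and 2). It was then 9.86 and 9.22 at 25 min and 10.33 and 9.59 at 30 min. The window means average over these levels, which were not tested.

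RPL27B, a gene of the large subunit, read 9.34, 8.02, 9.93 and 8.91 in late and 7.28, 7.06, 8.27 and 6.45 in middle heat, so that 25 min replicate 2 lay below 20 min replicate 1. It rose by 1.79 ± 0.39 (adjusted p = 0.0339) and in late heat differed from before heat by -2.27. RPL36A rose by 1.44 ± 0.35 (adjusted p = 0.0498) and was measured by a probe set that its suffix marks as matching more than 1 transcript, so its near-identical copy may contribute. RPS20, of the small subunit, was the list's gene that fell, by 0.99 ± 0.24 (adjusted p = 0.0498), with 8.37, 9.12, 9.89 and 9.01 in late and 10.15, 10.72, 9.47 and 10.02 in middle heat.

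The ribosomal protein genes were also divided by whether they had already fallen at 5 and 10 min. Of the 82 genes, 12 had fallen early by the test, and of these 9 differed upwards between the windows, 7 rose with the block and 0 fell, with a median of 0.97 (1.02 in replicate 1 and 0.81 in replicate 2). Of the other 70, 29 differed upwards and 41 downwards, and 4 rose and 4 fell with the block, with a median of -0.14 (0.34 and -0.51). Probe sets with a shared-target suffix measured 6 of the 12 and 24 of the 70. Over all genes 16.2% had fallen early, and 4.81% rose and 2.03% fell between the windows with the block. The difference between the classes was not tested.

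Genes were also grouped by the comparison of 5 and 10 min against before heat, which shares no array with the windows. The 2 comparisons share the fit's estimate of spread and, since same-numbered arrays deviate together, are not fully independent. That response called 1668 genes (29.5%), 753 higher (13.3%) and 915 lower (16.2%), 1265 without replicate 1 before heat and 1126 without replicate 2 before heat. Of the 31 genes that rose late, 25 had fallen early, 0 had risen early and 6 were not called early. Of the 11 that fell late, 9 had risen early and 2 were not called.

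Most genes of both early classes differed in the direction opposite to their early change, and a minority of them passed the test. Of the 915 genes that fell early, 88.5% differed upwards between the windows and the median difference was 0.36 (0.38 within replicate 1 and 0.36 within replicate 2). With the block 207 of them rose (22.6%) and 1 fell (0.109%), against 4.81% and 2.03% over all genes. Of the 753 that rose early, 78% differed downwards, with a median of -0.22 (-0.32 within replicate 1 and -0.10 within replicate 2), and with the block 69 fell (9.16%) and 5 rose (0.664%). The 3988 genes not called early had a median of -0.01, and 1.5% rose and 1.13% fell with the block. Genes of a class are not independent of each other, and no test was made of the class as a whole.

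**Figure D4:**
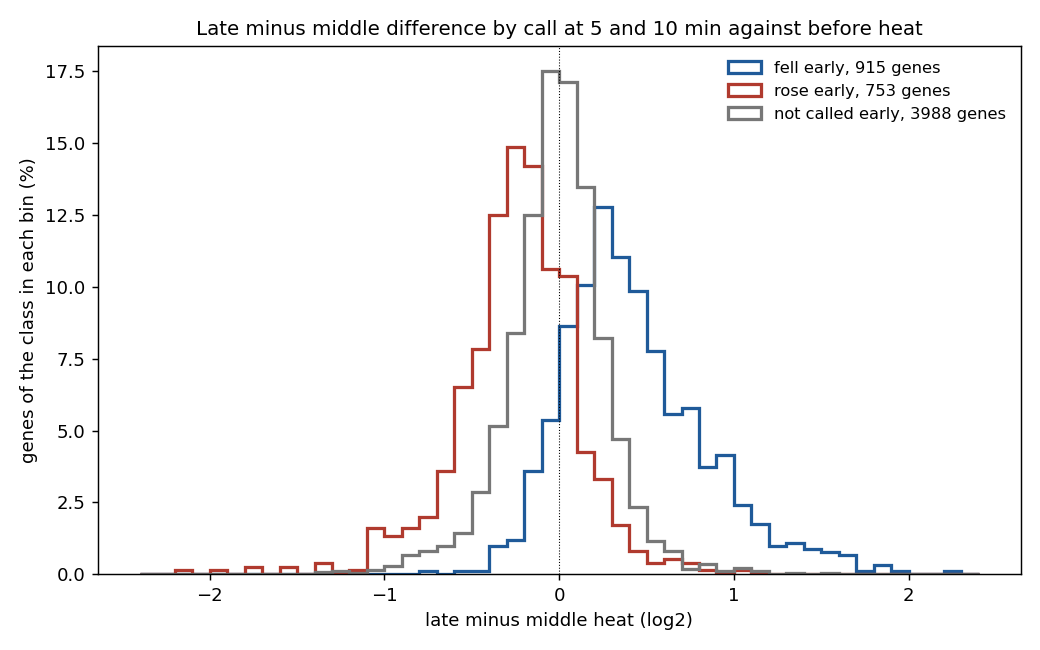
Share of genes (percent, y axis) in bins of the late minus middle difference (log2, x axis) for the 915 genes that fell at 5 and 10 min, the 753 that rose then and the 3988 not called, parental strain. The median lies at 0.36 for genes that fell early, at -0.22 for genes that rose early and at -0.01 for the others.

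The heat shock chaperone list had 34 measured genes, which also include HSP12, HSP30 and the protein sorting genes CUR1 and BTN2. Without the block 0 rose and 1 fell. With it 1 rose (2.94%) and 7 fell (20.6%), against 4.81% and 2.03% over all genes. Of the 34, 28 had risen early by the test, against 13.3% of all genes. In late heat 27 were still higher than before heat by the test, against 20.8% of all genes. The list's median difference was -0.27, with -0.49 within replicate 1 and -0.02 within replicate 2. Centring the arrays on the hybridisation controls brought it to 0.0029. That centring shifts every gene by the same 0.27, so the list's value relative to all genes, -0.28, cannot change under it. APJ1 (YNL077W), an Hsp40 of the nucleus, read 5.82, 6.79, 5.29 and 6.45 in late heat, against 7.99, 8.27, 6.51 and 7.94 in middle heat. 25 min replicate 2 lay above 20 min replicate 1, and within each replicate both late arrays lay below both middle arrays. It fell by 1.59 ± 0.38 (adjusted p = 0.0498) and remained 1.75 above its level before heat (adjusted p = 0.00348).

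The genes of the chaperone list that passed only with the block include CUR1, which sorts misfolded proteins (-1.08 ± 0.26, adjusted p = 0.0143). BTN2, which acts in the same sorting, and FES1, the exchange factor of cytosolic Hsp70, were picked after their values were seen. BTN2 differed by -1.71 ± 0.42 (adjusted p = 0.0151) and FES1 by -1.32 ± 0.28 (adjusted p = 0.00678) with the block. The others that fell with the block were SIS1, an Hsp40 (-0.86 ± 0.22, adjusted p = 0.0197), HSP78, the mitochondrial disaggregase (-0.86 ± 0.25, adjusted p = 0.0356), and SSE1, an Hsp110 (-0.34 ± 0.10, adjusted p = 0.0407), named after their values were seen. SSE1 read 10.63, 10.73, 10.78 and 11.01 in late and 11.14, 11.17, 11.02 and 11.18 in middle heat, without overlap. CNS1, an Hsp90 cochaperone that had fallen early, was the list's gene that rose with the block (0.70 ± 0.16, adjusted p = 0.0116).

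SSA4, HSP104, HSP26 and HSP82, likewise named after their values were seen, were not called in either fit. SSA4, the heat-induced Hsp70, read 12.81, 13.34, 12.76 and 13.35 in late and 13.09, 13.15, 12.90 and 13.56 in middle heat, against 8.43 and 6.22 before heat. Its difference between the windows was -0.11 ± 0.34 (adjusted p = 0.946). HSP104, the disaggregase, read 10.40 to 11.25 in late and 11.11 to 11.34 in middle heat (-0.36 ± 0.23, adjusted p = 0.559). HSP26, a small heat shock protein, and HSP82, the inducible Hsp90, differed by -0.06 ± 0.39 and -0.23 ± 0.24 (adjusted p = 0.975 and 0.772).

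Further genes that had risen early fell between the windows. ZPR1 (YGR211W), which assists folding of the elongation factor eEF1A and was picked after its values were seen, read 7.51, 9.04, 6.97 and 8.76 in late and 10.16, 11.27, 8.58 and 10.78 in middle heat. Replicate 2 was higher than replicate 1 at each of the 4 times, and the difference between the windows was -2.13 within replicate 1 and -2.12 within replicate 2. Over both replicates ZPR1 fell by 2.13 ± 0.47 (adjusted p = 0.0366), and its late level differed from that before heat by -0.21 (adjusted p = 0.802). YGR210C, its neighbour in the gene order of the RefSeq table and named after its values were seen, fell by 1.37 ± 0.21 (adjusted p = 0.00341) and in late heat differed from before heat by -0.46 (adjusted p = 0.159).

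IRA2, which turns off Ras by stimulating its GTPase, fell by 1.38 ± 0.31 (adjusted p = 0.0391), with 8.31, 9.73, 8.22 and 9.45 in late and 10.30, 11.26, 9.28 and 10.40 in middle heat. It remained 1.37 above its level before heat (adjusted p = 0.00456). RIE1, an RNA-binding protein picked after its values were seen, fell by 1.76 ± 0.40 (adjusted p = 0.0456). LST8, a subunit of both TOR complexes and likewise picked, missed the threshold without the block (-1.58 ± 0.39, adjusted p = 0.0554) and passed with it (adjusted p = 0.000217).

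In 4 of the 11 genes that fell by the test without the block, the windows did not overlap at all. MPC3, a subunit of the mitochondrial pyruvate carrier used in respiring cells, read 6.75, 7.02, 7.14 and 6.84 in late and 7.99, 7.53, 7.91 and 7.88 in middle heat and fell by 0.89 ± 0.19 (adjusted p = 0.0337). FMP48, a kinase-like protein found with mitochondria, fell by 1.04 ± 0.25 (adjusted p = 0.0498), CUP2, the copper-sensing activator, by 1.00 ± 0.21 (adjusted p = 0.0337), and PHD1, an activator of filamentous growth, by 0.96 ± 0.20 (adjusted p = 0.0337). All 4 had risen early. In late heat MPC3 and FMP48 remained 2.29 and 2.16 above their levels before heat, while PHD1 differed from its own by -1.04 (adjusted p = 0.000858).

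The Msn2/Msn4 general stress genes stayed high as a list. Of 38 measured members 0 were called without the block, and with it GRE1 rose (1.07 ± 0.29, adjusted p = 0.0288) and CTT1, the cytosolic catalase, fell (-0.69 ± 0.20, adjusted p = 0.0329). The median difference was -0.05, with -0.17 within replicate 1 and 0.11 within replicate 2, and its sign was positive under hybridisation control centring (0.22) and without 25 min or 30 min replicate 1 (0.07 and 0.03). The median member stood 4.49 above its level before heat in late heat and 4.35 above in middle heat, and all 38 were higher than before heat in late heat by the test (20.8% of all genes were). In the trehalose and glycogen list 0 of 21 were called without the block, and 6 fell (28.6%, against 2.03% over all genes) and 0 rose with it, with a median of -0.31. TPS2, the phosphatase that completes trehalose synthesis, read 10.65, 10.26, 10.93 and 11.29 in late and 11.54, 11.45, 11.61 and 11.76 in middle heat, and passed with the block (-0.81 ± 0.21, adjusted p = 0.0205). GIP2, which targets a phosphatase to glycogen synthase, passed likewise (-1.10 ± 0.21, adjusted p = 0.00424).

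Of 23 measured genes of glucose uptake and phosphorylation, 1 rose and 1 fell without the block. With it 2 rose and 2 fell (8.7% each way, against 4.81% higher and 2.03% lower over all genes). HXK2, the main hexokinase in glucose medium, read 8.15, 9.50, 8.77 and 9.63 in late heat, against 10.43, 10.36, 9.59 and 10.84 in middle heat. It fell by 1.29 ± 0.29 (adjusted p = 0.0397) without having been called early (-0.13, adjusted p = 0.835), and in late heat differed from before heat by -2.44 (adjusted p = 4.61e-06). STD1, which relays glucose signals to the Snf1 kinase and the hexose transporter repressor, rose by 0.91 ± 0.22 (adjusted p = 0.0498), with 7.06 to 7.27 in late and 6.04 to 6.40 in middle heat.

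The hexose transporters HXT1 and HXT2 passed only with the block and in opposite directions. HXT1, the low-affinity carrier, read 6.85, 6.67, 7.32 and 7.15 in late and 5.14, 5.61, 5.81 and 4.74 in middle heat (1.68 ± 0.34, adjusted p = 0.00517). HXT2, a high-affinity carrier, read 7.33, 6.11, 6.63 and 5.74 in late and 9.63, 7.63, 8.17 and 7.40 in middle heat (-1.76 ± 0.30, adjusted p = 0.00134). Neither pair of windows overlapped. SKS1, a kinase needed at low glucose and taken by the size of its change, rose by 1.28 ± 0.26 (adjusted p = 0.0337) and in late heat differed from before heat by -0.17 (adjusted p = 0.694).

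Daughter cell separation genes are expressed as a newborn cell cuts its septum. Of 13 measured, 1 rose and 0 fell without the block and 5 rose (38.5%, against 4.81% over all genes) and 0 fell with it, with a median difference of 0.41. DSE4, a secreted glucanase, read 8.01, 8.36, 8.30 and 9.04 in late and 7.37, 7.33, 7.63 and 7.92 in middle heat and rose by 0.87 ± 0.19 (adjusted p = 0.0337). SCW11, a cell wall protein of the same program, passed with the block (1.10 ± 0.19, adjusted p = 0.00147). Of 27 mating genes 0 were called without the block, and 2 rose (7.41%, against 4.81% over all genes) and 4 fell (14.8%, against 2.03%) with it. MF(ALPHA)2, the minor alpha pheromone gene, differed by -1.38 in the 2 fits (adjusted p = 0.0523 without the block and 0.000496 with it), and in late heat by -4.60 from before heat.

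Other single genes that rose belong to varied pathways. ECM13, a gene whose function is not settled, read 7.13, 7.01, 7.85 and 7.54 in late and 5.11, 4.59, 6.18 and 5.17 in middle heat. It rose by 2.12 ± 0.36 (adjusted p = 0.00667) and was 2.59 above its level before heat, with no early call (-0.36, adjusted p = 0.609). YAH1, the mitochondrial ferredoxin of iron-sulfur cluster assembly, rose by 1.05 ± 0.20 (adjusted p = 0.0315), and CDS1, the enzyme that makes CDP-diacylglycerol, by 0.96 ± 0.22 (adjusted p = 0.0457). ISA1, also of iron-sulfur assembly, and PSA1, which makes GDP-mannose for cell wall glycans, were named after their values were seen and rose by 0.76 ± 0.18 and 0.69 ± 0.17 (adjusted p = 0.0498 each). Of 46 respiratory chain genes 0 were called without the block and 4 fell (8.7%, against 2.03% over all genes) with it, QCR7 of complex III by 0.71 ± 0.16 (adjusted p = 0.00854). Of 71 mitochondrial ribosomal protein genes 0 were called in either fit, and their median was 0.01.

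The steps between neighbouring times, with 2 arrays on each side, gave no calls. For 20 against 15 min, 25 against 20 min and 30 against 25 min 0 genes (0%) passed in limma without or with the block, and 153, 293 and 290 genes had an unadjusted p under 0.05 without the block and 347, 661 and 618 with it. The median small subunit processome gene differed by 0.14, 0.75 and 0.17 over these steps, and the median large subunit assembly gene by 0.19, 0.65 and 0.12. The median gene of the chaperone list differed by -0.0028, -0.29 and -0.01. These lists thus differed most at the step between the windows, in values that were not tested as lists. Other lists did not. The median gene of the translation factor list differed by 0.105, 0.276 and 0.368 over the steps. The median phosphate starvation gene differed by 0.157, 0.162 and 0.398. The median daughter cell separation gene differed by 0.353, 0.109 and 0.312. The median ribosomal protein gene fell at the first step and rose at the last. It differed by -0.366, 0.0365 and 0.408 for the large subunit and by -0.481, 0.00759 and 0.419 for the small subunit.

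The same windows in the deletion strains gave similar median differences for ribosome assembly, while the counts called differed. The median late minus middle difference of the small subunit list was 0.84 in the parental strain, 0.80 in dpl1D and 1.06 in lcb4D/lcb5D. That of the large subunit assembly list was 0.76, 0.70 and 0.92. With the block 29, 13 and 49 of the 64 small subunit list genes rose in these strains, in the same order. Of the 69 large subunit assembly genes 23, 6 and 47 rose. Over all genes 4.81%, 1.89% and 8.29% rose. Within the deletion strains 4 genes (0.0707%) were called in dpl1D and 216 (3.82%) in lcb4D/lcb5D without the block, and 157 (2.78%) and 761 (13.5%) with it. With the block 7 genes of the chaperone list fell in the parental strain, 4 in dpl1D and 12 in lcb4D/lcb5D. Of the Msn2/Msn4 genes 1, 0 and 14 fell. Over all genes 2.03%, 0.884% and 5.16% fell. The median of the Msn2/Msn4 list was -0.05 in the parental strain, 0.02 in dpl1D and -0.41 in lcb4D/lcb5D, and 0 members passed the test of the strain difference with or without the block.

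PHO84 rose in all 3 strains, by 2.30 in the parental strain, 1.90 in dpl1D (adjusted p = 0.0341) and 1.47 in lcb4D/lcb5D (adjusted p = 0.0239). The difference between strains was itself tested for every gene. For the parental strain minus dpl1D 0 genes passed without or with the block, and 74 and 196 had an unadjusted p under 0.05 in the 2 fits.

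For the parental strain minus lcb4D/lcb5D 0 genes passed without the block (138 at an unadjusted p under 0.05), and 1 passed with it (0.0177%). That gene was MET17, the enzyme that fixes sulfide into homocysteine, whose late minus middle difference was 0.18 in the parental strain and 1.90 in lcb4D/lcb5D. The strain difference was -1.72 ± 0.32 (adjusted p = 0.0626 without the block and 0.0434 with it). The methionine and sulfur list had a median difference of 0.07 in the parental strain, 0.07 in dpl1D and 0.68 in lcb4D/lcb5D. With the block 1 of its 33 genes rose in the parental strain, 0 in dpl1D and 17 in lcb4D/lcb5D, against 4.81%, 1.89% and 8.29% higher over all genes. SAM1 and MET2, among the genes of smallest p for the strain difference, did not pass in either fit, with -2.25 ± 0.61 and -1.51 ± 0.37 (adjusted p = 1 and 0.968).

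Daughter cell separation genes had a median difference of 0.41 in the parental strain, -0.05 in dpl1D and -0.13 in lcb4D/lcb5D, and none of the 13 passed the test of the strain difference. STE14, the methyltransferase that finishes a-factor and other lipid-modified proteins, rose by 0.72 ± 0.16 in the parental strain (adjusted p = 0.0396) and differed by 0.01 in dpl1D and 0.05 in lcb4D/lcb5D. Its strain differences, 0.70 ± 0.23 and 0.66 ± 0.23, did not pass (adjusted p = 1 each).

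**Figure D5:**
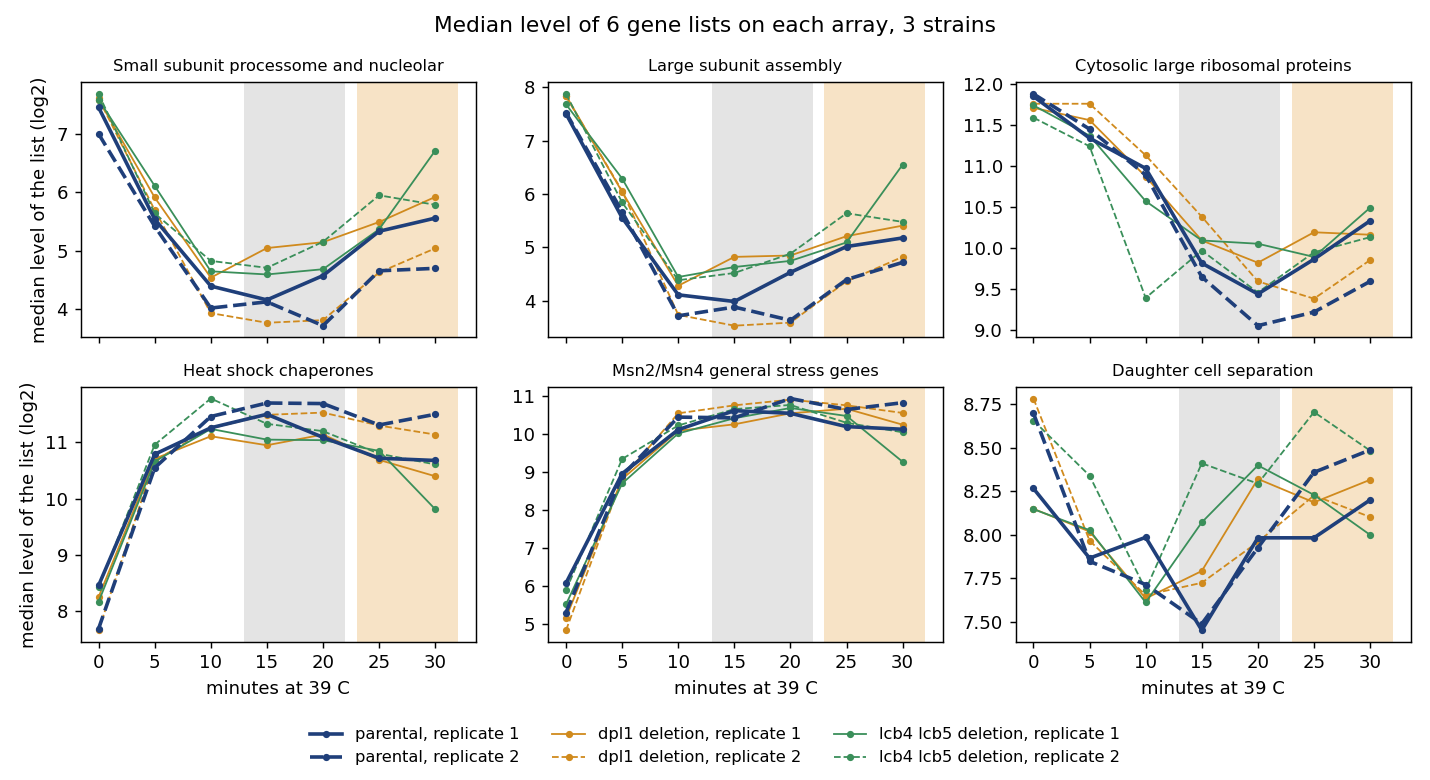
Median level (log2, y axis) of the members of 6 gene lists on each of the 42 arrays against minutes at 39 C (x axis), with solid lines for replicate 1 and dashed lines for replicate 2 of each strain; the right shaded band marks late heat and the left one middle heat. In the parental strain the small subunit list lies at 4.65 to 5.56 in the late band and 3.71 to 4.57 in the middle band, and the chaperone list at 10.68 to 11.50 in the late band and 11.09 to 11.70 in the middle band.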

How the data were processed

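The data are 42 single-colour Affymetrix yeast arrays, 2 for each of 21 combinations of strain and time. The deposited values are on a log2 scale; the submitters' processing notes name RMA (version not given there), and the log base was inferred from the range of 1.36 to 14.7. No depth applies, and the number of arrays limits precision. Of 9335 probe sets 60 are controls; 6504 have 1 gene symbol, 328 several and 2443 none listed. The probe set of highest mean stood for each of 5656 genes, and no gene was left out for a dim signal.

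The 21 groups each had a mean in a single linear model (limma 3.58.1, R 4.3.3, 21 residual degrees of freedom, empirical Bayes, two-sided), with Benjamini-Hochberg adjustment over all 5656 genes and calls at an adjusted p under 0.05. Late heat is the mean of the 25 and 30 min groups and middle heat that of the 15 and 20 min groups. The ranges and values per array include both times of a window. Standard errors are from this fit, or from the fit with the block where a value is said to pass only with it. The fit was checked on simulated data.

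Replicate numbers come from the labels. Deviations of same-numbered parental arrays from their group means correlated above 0.1 in 21 of 21 pairs of groups (lowest 0.219, median 0.508), so same-numbered arrays were taken as pairs and a second fit carried the number as a block within strains.

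The members, the 42 gene lists and the tests were chosen with earlier results of these data known. Genes were named by a rule: up to 15 called higher and 15 called lower with the largest change among those whose windows do not overlap, up to 4 of smallest p in each list, up to 8 of smallest p in each other test, and genes that check the strains. Genes outside the rule are said to be chosen after their values were seen. No list was tested as a set. Alternatives changed the block, the normalization, the dim filter, the threshold, the moderation, the probe set rule and the arrays included. No promoter or protein sequence was used here.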

Additional observations from a re-analysis of the deposited data

Results flagged for a closer look

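In 4 of the 84 sets of 4 arrays examined for the called genes, 1 array stood apart from the other 3 by Dixon's criterion for the gap over the range at the 95% level, which chance alone gives in about 1 in 20 sets. CUP2 read 6.13 at 25 min replicate 1, against 6.78 to 6.89 on the other late arrays. PUS1 read 4.96 at 20 min replicate 1, against 3.41 to 3.65 on the other middle arrays. SNU13 read 7.94 at 20 min replicate 2, against 8.58 to 8.65 on the other middle arrays. STE14 read 7.40 at 30 min replicate 1, against 6.85 to 6.93 on the other late arrays. The windows of CUP2, PUS1 and STE14 did not overlap with these arrays included. The array that stands apart lies toward the other window in PUS1. In CUP2, SNU13 and STE14 it lies away from the other window and so enlarges the difference.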

How the results depend on the processing

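Of the 42 genes called between late and middle heat, all remained with the replicate block within strains (387 called) or across strains (283). Without the block 6 genes passed on parental arrays alone, 25 after cyclic loess (12 higher, 48%, against 73.8% higher in the report), 3 after hybridisation control centring, 3 at an adjusted p under 0.01, 26 with trend and robust moderation, 4 with array weights and 26 with the mean of a gene's probe sets. 35 passed after median centring (21 higher, 60%) and 0 when the windows were fitted as 2 groups of 4. The alternatives added after seeing the data gave 2 genes in replicate 1 and 0 in replicate 2 with a window's times as replicates, and 7 after hybridisation control centring with the block. Leaving out 1 array gave 0 to 84 genes without and 78 to 326 with the block (127 without 25 min replicate 1, 161 and 246 without 30 min replicates 1 and 2). Under these settings 0 results changed the direction of a call. The 3 single steps each gave 1 gene after hybridisation control centring.

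Hybridisation control centring gave 394 genes for the early response and 839 for late heat against before heat. Leaving out 1 array gave 1126 to 1606 for the early response and 1844 to 2379 for late heat against before heat. The parental strain minus dpl1D gave 1 gene after that centring and 0 without any array, and the parental strain minus lcb4D/lcb5D gave 1 gene with either block and 0 to 2 without 1 array. The share of early-fallen genes that differed upwards was 84.9% with the block, 84.6% after cyclic loess, 99.5% after hybridisation control centring and 88.6% and 93.2% without replicates 1 and 2 before heat. That of early-raised genes that differed downwards was 62.3% after hybridisation control centring. The cause of these changes was not tested. Among the genes named, the block changed no other late against middle call than those given with it. The promoter comparison in the plan was not run, as no promoter sequence was used here.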

Other observations

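Some metabolic genes differed between the windows in ways the report does not describe. Of 69 measured amino acid synthesis genes 0 were called without the block, and 7 rose (10.1%) and 3 fell (4.35%) with it, against 4.81% and 2.03% over all genes. ILV5, of the branched-chain pathway, was chosen after its values were seen and differed by 1.59 ± 0.29 (adjusted p = 0.00272 with the block), with 9.56, 8.86, 10.09 and 9.33 in late and 8.24, 6.44, 9.19 and 7.59 in middle heat. GLN1, glutamine synthetase, differed by 1.43 ± 0.36 (adjusted p = 0.0174 with the block), and LEU1, of leucine synthesis, by -0.70 ± 0.17 (adjusted p = 0.0137 with the block). MET6, the methionine synthase, differed by 1.54 ± 0.41 (adjusted p = 0.024 with the block). In the cell wall list 4 of 56 genes rose with the block, a share of 7.14% near that of all genes (4.81%), and 0 fell. Among them was PST1, a wall protein induced by wall damage (1.03 ± 0.18, adjusted p = 0.00214), which stood 2.80 above its level before heat. The median proteasome gene differed by 0.19, with 29 of 36 upwards, and 1 of the 36 rose with the block.

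Of 2771 probe sets with no single gene symbol, 0 were called higher and 1 lower when all 9275 probe sets other than controls were tested without the block (6 called in all), and 7 and 9 with it (318 in all).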
